A study of Mus musculus with 38 samples.

Results

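Neutrophil transcripts were followed across all 38 GeoMx segments of mouse liver through 5 gene targets, S100a8, S100a9, Csf3r, Ly6g and Retnlg, chosen by name as markers of this cell type from the 10547 gene targets of the tables. The choice was made with earlier results of these data known. Neutrophils are short-lived phagocytes that leave the bone marrow under granulocyte colony-stimulating factor (G-CSF) and are drawn into injured tissue by chemokines and complement fragments. In cholestatic liver they gather around bile ducts next to the ductular reaction, the expansion of cholangiocyte-like cells at the portal tract. S100A8 and S100A9 form calprotectin, the calcium- and zinc-binding heterodimer that fills the neutrophil cytosol and is also made by monocytes and by some activated epithelia. CSF3R is the G-CSF receptor and is also found on monocytes, LY6G is the surface antigen by which mouse neutrophils are usually gated, and Retnlg encodes resistin-like gamma, a secreted protein of maturing neutrophils.

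The promoters of the members that carried most of the signal are shown first, as the 300 RefSeq bases that run from 250 before to 50 after an annotated start (GRCm38.p6), written 5′ to 3′ along the gene. S100a8 lies on the plus strand at chr3:90669071-90670034 (promoter window chr3:90668821-90669120) and S100a9 on the minus strand at chr3:90692630-90695721 (window chr3:90695672-90695971), with 22595 bases between the genes. Csf3r lies on the plus strand at chr4:126023441-126044975, and its window is chr4:126024409-126024708, which surrounds a RefSeq start at 126024659, 1218 bases inside the gene. Capitals mark matches to GAGGAA on either strand (TTCCTC where it reads on the opposite strand), a core of sites bound by the myeloid factor PU.1, to TTGCNNAA on either strand, the letters of a C/EBP site, and to TATAAA on the gene's strand.
S100a8: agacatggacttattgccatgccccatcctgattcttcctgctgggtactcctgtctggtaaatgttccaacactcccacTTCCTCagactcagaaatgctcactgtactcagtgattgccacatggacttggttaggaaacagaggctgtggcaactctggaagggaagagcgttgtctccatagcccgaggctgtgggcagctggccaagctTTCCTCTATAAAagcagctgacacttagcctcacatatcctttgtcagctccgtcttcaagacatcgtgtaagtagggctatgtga
S100a9: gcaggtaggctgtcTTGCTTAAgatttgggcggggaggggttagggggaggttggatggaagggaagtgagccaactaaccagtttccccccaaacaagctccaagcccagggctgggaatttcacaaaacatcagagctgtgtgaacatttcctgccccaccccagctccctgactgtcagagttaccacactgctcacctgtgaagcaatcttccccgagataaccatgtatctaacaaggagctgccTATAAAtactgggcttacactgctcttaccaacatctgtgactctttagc
Csf3r: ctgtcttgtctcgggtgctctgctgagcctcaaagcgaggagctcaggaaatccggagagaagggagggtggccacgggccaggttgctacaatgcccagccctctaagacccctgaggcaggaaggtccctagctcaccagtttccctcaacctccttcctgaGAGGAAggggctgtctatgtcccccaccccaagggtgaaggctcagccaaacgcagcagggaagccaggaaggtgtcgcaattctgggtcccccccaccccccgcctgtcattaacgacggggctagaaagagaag
The S100a8 window held TTCCTC with its first base at -170 and at -36, the second running straight into TATAAA at -30. The S100a9 window held TTGCTTAA at -236 and TATAAA at position 1 of the annotated gene, and the Csf3r window held GAGGAA at -86 from its own start. Of 32851 promoter windows of this length, 28.3% held the PU.1 core, 10.8% the C/EBP letters and 8.32% TATAAA. The letters were chosen after the sequences had been read, and a match describes the sequence without showing a site. All 5 members were matched to RefSeq.

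The segments came from formalin-fixed sections of WT mice and of Trail.mye mice, in which Cre driven by Lyz2 removes floxed alleles of the death ligand TRAIL from myeloid cells, on a mainly C57BL/6 background. Lyz2-Cre is active in neutrophils as well as in macrophages. Mice of 6 to 8 weeks received a control diet (CON) or a diet with 0.1% DDC, a porphyrinogenic compound that produces cholestatic injury, in rounds of 5 days with 3 days of chow between them over 21 days, and the experiment ended on day 22. Periportal regions of interest (ROIs) were divided into a PanCK+ segment (cholangiocytes) and an IBA1+ segment (macrophages), and parenchymal ROIs gave an IBA1+ segment. The PanCK+ segments numbered 3 for WT CON, 4 for WT DDC, 4 for Trail.mye CON and 5 for Trail.mye DDC. The periportal IBA1+ segments numbered 2, 4, 4 and 5 in the same order, and the parenchymal IBA1+ segments 1, 2, 2 and 2. No segment was selected for a neutrophil antigen, so every neutrophil transcript was read in tissue gated for another cell, and fewer neutrophils cannot be told apart from less RNA per neutrophil. The gene targeted in Trail.mye mice was not analysed here. No label gives the mouse, so that several segments may come from 1 animal. The p-values below measure the spread between segments and, for a comparison of animals, are too small.

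Depth set much of what could be seen. Totals ran from 20319 to 836971 counts per segment, and the lowest value in the count table is 1, so a count of 1 is read here as the floor and not as a molecule. On the Q3 scale, on which each segment was multiplied by a factor that equalises its upper quartile, the floor stood at 5.25 in the WT DDC periportal IBA1+ segments of ROI 7, 9 and 11, but at 0.198 to 0.808 in those of Trail.mye DDC. The WT and Trail.mye CON PanCK+ libraries held at most 61665 counts, against 158219 to 836971 in the periportal Trail.mye DDC libraries. The 2 libraries of ROI 35, a Trail.mye DDC region, were the deepest and had the highest negative-probe counts, 43.1 in PanCK+ and 27.8 in IBA1+, where the rest of the periportal Trail.mye DDC libraries had 2.20 to 4.78. Macrophage markers were lower in PanCK+ than in IBA1+ segments of the same ROI for 10 of 10 measured genes, and cholangiocyte markers were higher for 10 of 10. Hepatocyte markers were also lower in PanCK+ for 10 of 10. That comparison called 17.8% of all genes. In Trail.mye periportal IBA1+ segments the summed Q3 level of the hepatocyte markers was 10416 to 14407 on CON and 1234 to 3776 on DDC. The macrophage markers summed to 512 to 760 and 391 to 920 there. Of the 10 neutrophil markers listed, 5 were in the table, the members themselves.

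**Figure D1:**
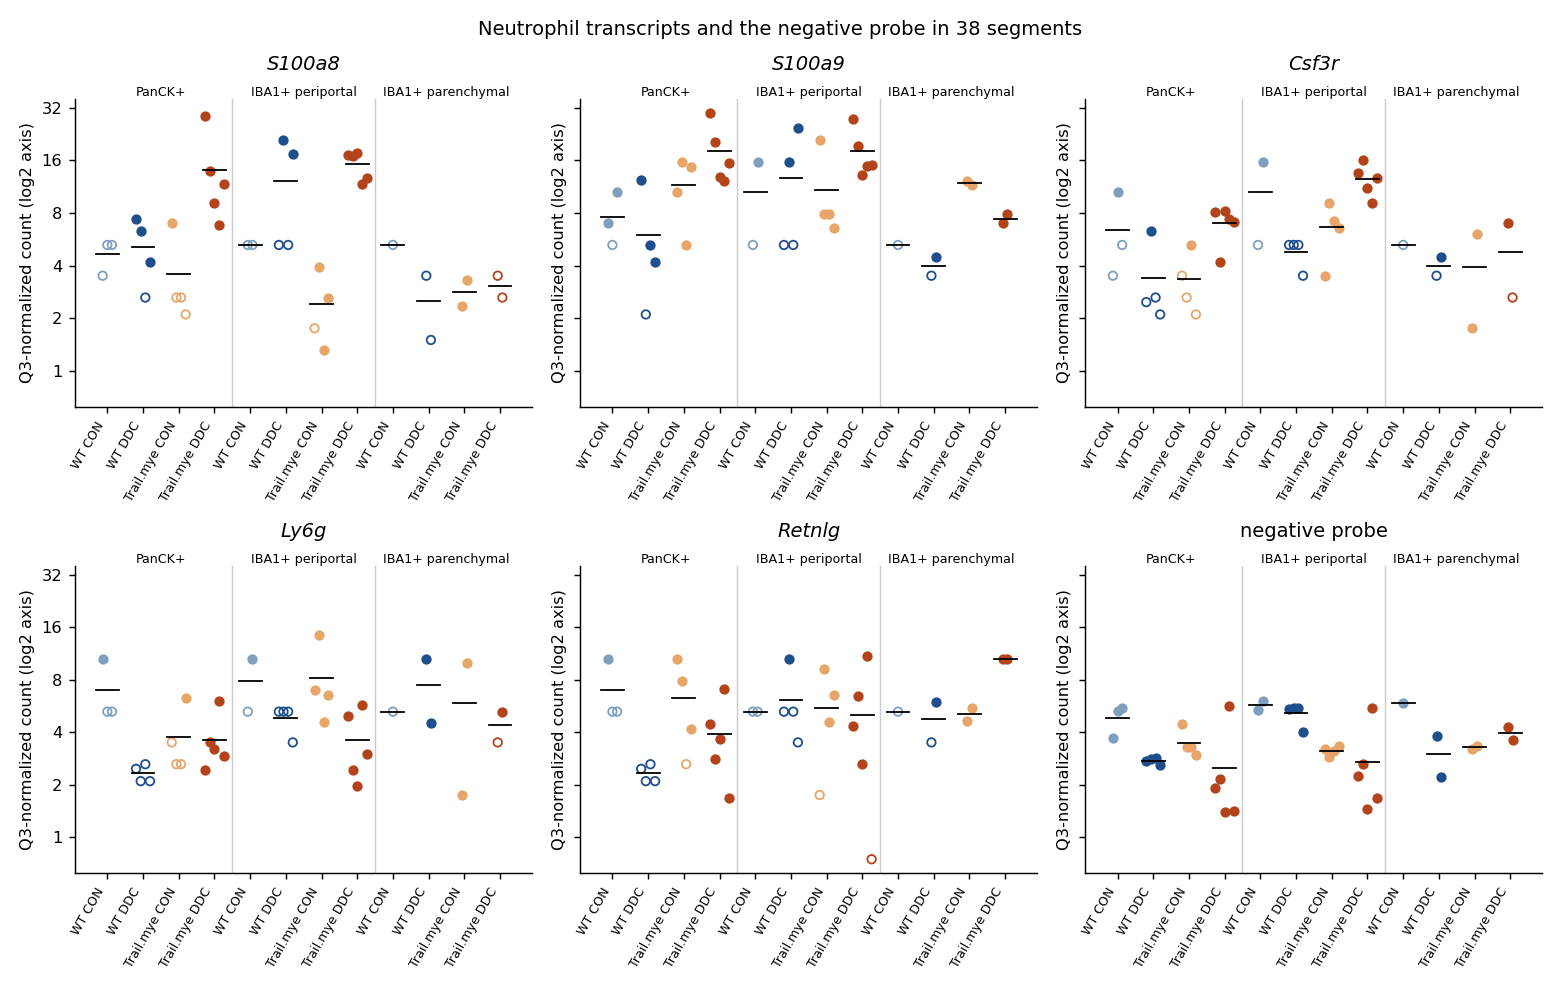
Q3-normalized count (log2 axis) of the 5 transcripts and of the negative probe in each of the 38 segments, by segment class, genotype and diet. Each point is a segment, open points are counts of 1, and bars are group means. S100a8 in the 5 periportal IBA1+ segments of Trail.mye DDC lies between 11.7 and 17.7, above the 4 Trail.mye CON segments at 1.31 to 3.94.

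S100a9 was the member seen most widely. S100a9 was above 1 count in 31 of 38 segments, and Ly6g, Csf3r and Retnlg in 22 each. S100a8 was above 1 count in 21. Measured against the negative probe of the same segment, which reports unspecific binding, S100a9 exceeded it by over 2 times in 24 segments, S100a8 in 13, Csf3r in 12, and Ly6g and Retnlg in 10 each. The median share of all gene targets over that line was 47.6% in PanCK+, 45.3% in periportal IBA1+ and 47.0% in parenchymal IBA1+ segments. A count of at least 10 was reached by S100a9 in 14 segments, by Csf3r in 11, by S100a8 in 10, and by Ly6g and Retnlg in 4.

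The members parted most clearly in the periportal IBA1+ segments of Trail.mye DDC. There S100a8 and S100a9 were over 2 times the negative probe in 5 of 5 segments, with medians of 7.54 and 8.87 times, and Csf3r in 4 of 5 with a median of 6.17 times. Ly6g, the antigen most specific to neutrophils, was over that line in 1 of 5 (median 1.36 times), and Retnlg in 1 of 5 (median 1.92 times). In the same segments 21.7% to 85.7% of all gene targets were over the line (median 77.8%), the lowest share being that of ROI 35. In the PanCK+ segments of Trail.mye DDC the line was passed by S100a9 in 5 of 5, S100a8 in 4 of 5, Csf3r in 3 of 5, and Ly6g and Retnlg in 2 of 5, where 19.0% to 90.6% of all targets passed it (median 86.6%). In the 7 parenchymal IBA1+ segments S100a8 passed it in 0, S100a9 in 4, Csf3r in 1, and Ly6g and Retnlg in 3 each, beside 22.6% to 71.6% of all targets (median 47.0%).

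**Figure D2:**
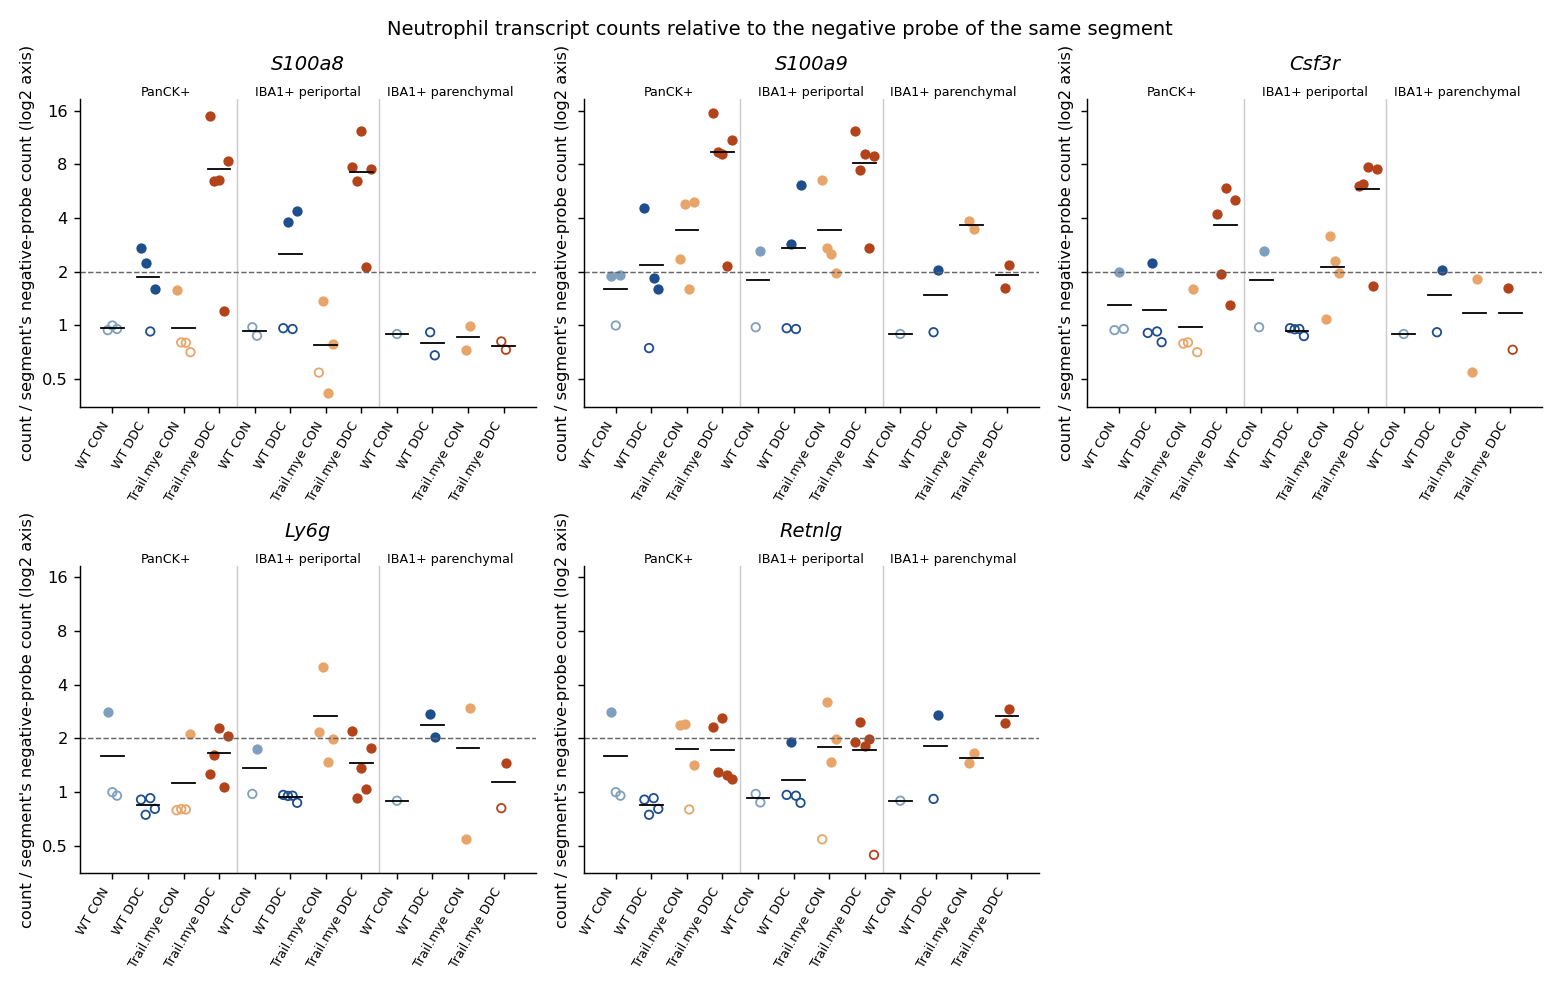
Count of each transcript divided by the negative-probe count of the same segment (log2 axis), by segment class, genotype and diet. Each point is a segment, open points are counts of 1, bars are group means, and the dashed line marks 2 times the negative probe. S100a8, S100a9 and Csf3r of Trail.mye DDC periportal IBA1+ segments have medians of 7.54, 8.87 and 6.17, and Ly6g and Retnlg of 1.36 and 1.92.

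The effect of the diet was first compared in the periportal IBA1+ segments of Trail.mye mice, where each library held at least 80721 counts. S100a8 was higher on DDC, and it was the one member of 5 that passed the test. In Trail.mye CON the counts of S100a8 were 1, 3, 2 and 2 in ROI 26 to 29, and in Trail.mye DDC they were 28, 21, 27, 59 and 17 in ROI 32 to 36. On the Q3 scale these are 1.75, 3.94, 1.31 and 2.63 against 17.3, 17.0, 17.7, 11.7 and 12.8, that is 2.41 ± 1.16 (SD, n = 4) against 15.3 ± 2.84 (SD, n = 5). Every DDC segment lay above every CON segment. The log2 fold change was 2.65 (SE 0.36, edgeR quasi-likelihood test, adjusted p = 2.28e-07), the 15th highest of 10547 genes, in a comparison where 9.38% of genes were called, with 4.2% of all genes called as higher. Groups that did not overlap, with DDC higher, made up 4.04% of genes. The CON counts were at 0.419 to 1.36 times the negative probe, so the fold was taken against the background of these segments. With each segment thinned to the lowest total the log2 fold change was 2.11 and the call was lost (adjusted p = 0.209). Without any 1 of the 9 segments it stayed between 2.31 and 2.98 and was called.

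S100a9, the partner of S100a8 in the heterodimer, was already present on the control diet. Its counts were 12, 6, 12 and 5 in Trail.mye CON and 45, 24, 20, 75 and 20 in Trail.mye DDC. The Q3 values were 10.8 ± 6.81 (SD, n = 4) against 18.0 ± 5.93 (SD, n = 5), and the groups overlapped because ROI 26 on CON stood at 21.0. The log2 fold change was 0.84 (SE 0.30, edgeR adjusted p = 0.0734). Without ROI 26 it was 1.22 (edgeR adjusted p = 0.0112), and without ROI 35 it was 0.94 (edgeR adjusted p = 0.0444).

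Csf3r and Ly6g took opposite directions, neither past the threshold. Csf3r counts were 2, 7, 11 and 5 on CON and 22, 20, 17, 46 and 17 on DDC, which gave 6.62 ± 2.36 (SD, n = 4) and 12.6 ± 2.64 (SD, n = 5) on the Q3 scale, with the groups meeting at ROI 27 (9.19) and ROI 35 (9.12). Its log2 fold change was 0.75 (SE 0.28, edgeR adjusted p = 0.124), and 0.93 (edgeR adjusted p = 0.0308) without ROI 35. Ly6g counts were 4, 11, 7 and 5 on CON and 8, 3, 3, 29 and 4 on DDC, or 8.15 ± 4.32 (SD, n = 4) and 3.62 ± 1.64 (SD, n = 5) on the Q3 scale. Its log2 fold change was -0.92 (SE 0.36, edgeR adjusted p = 0.178), and -1.20 (edgeR adjusted p = 0.0403) without ROI 35, whose Ly6g count of 29 was 1.04 times its negative probe. Retnlg, at 1, 7, 7 and 5 counts on CON and 7, 8, 4, 55 and 1 on DDC, had a log2 fold change of 0.09 (SE 0.40, edgeR adjusted p = 0.974). In all, leaving out ROI 35 raised the number of members called from 1 to 4, with S100a8, S100a9 and Csf3r higher and Ly6g lower. Calls over all 10547 genes rose as well, from 443 higher and 546 lower to 470 higher and 685 lower.

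**Figure D3:**
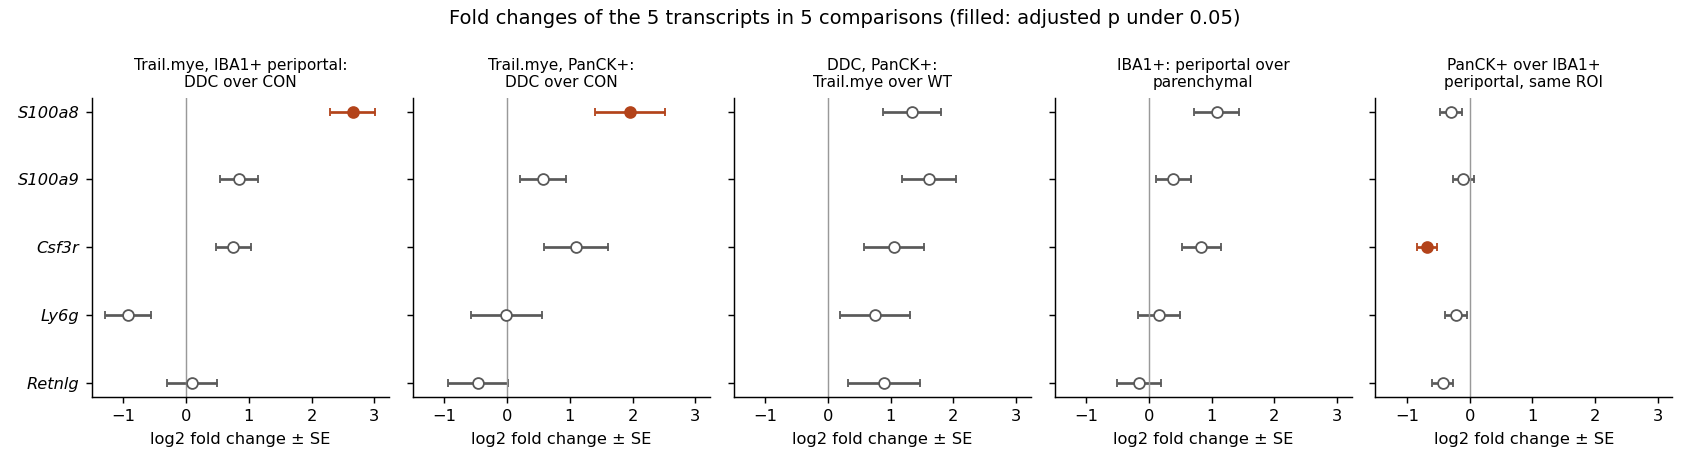
Log2 fold change (point) with its SE (bar) for the 5 transcripts in 5 comparisons fitted with edgeR over all 10547 genes. Filled points passed an adjusted p of 0.05: S100a8 for diet in Trail.mye periportal IBA1+ (2.65) and PanCK+ segments (1.96), and Csf3r for PanCK+ against IBA1+ (-0.68).

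Set against each other in the same segments, S100a8 was below S100a9 in all 4 Trail.mye CON segments and nearer to it on DDC. The ratio of the S100a8 to the S100a9 count was 0.0833, 0.5, 0.167 and 0.4 in Trail.mye CON (ROI 26 to 29) and 0.622, 0.875, 1.35, 0.787 and 0.85 in Trail.mye DDC (ROI 32 to 36). The S100a8 counts on CON were 1 to 3 and near the negative probe, with ROI 26 at the floor, so these CON ratios set S100a9 against the background of S100a8. In the PanCK+ segments the ratios were 0.143 to 0.667 on CON and 0.559 to 0.959 on DDC, which overlapped, and 3 of the 4 CON ratios had S100a8 at the floor and are upper limits. The ratios are given as a description, with no test.

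**Figure D4:**
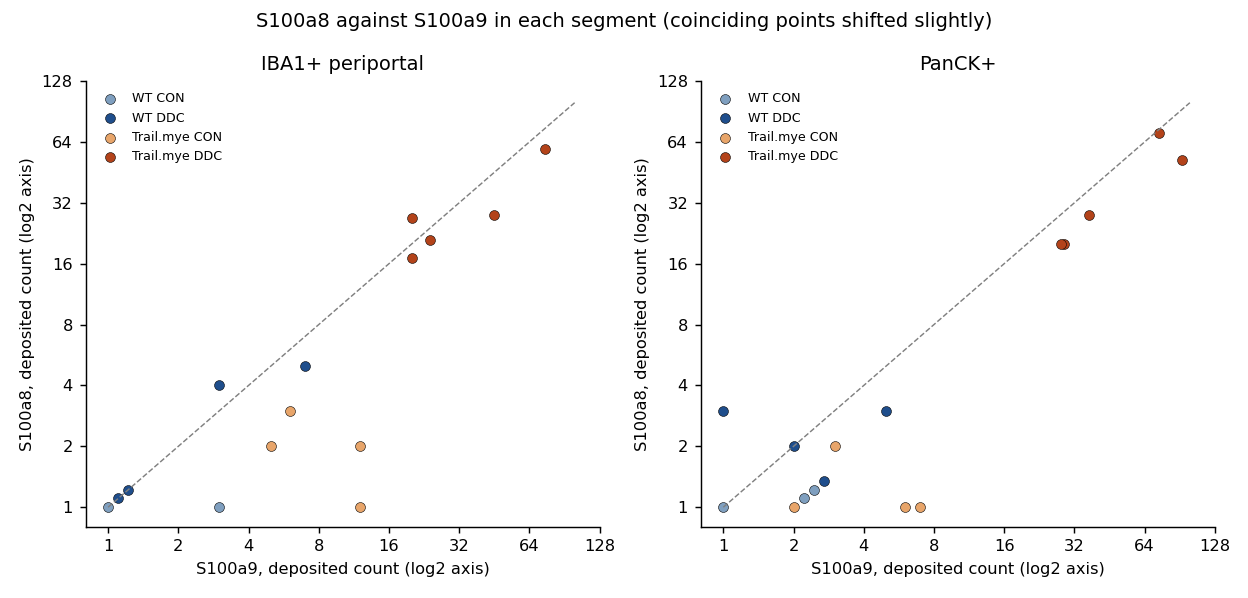
Deposited count of S100a8 against that of S100a9 (both on log2 axes) in each periportal IBA1+ segment (left) and each PanCK+ segment (right), coloured by genotype and diet, with coinciding points shifted slightly. The dashed line marks equal counts. The Trail.mye DDC periportal IBA1+ segments, at ratios of 0.622 to 1.35, sit at or near the line, and the Trail.mye CON segments, at 0.0833 to 0.5, lie below it.

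In the PanCK+ segments of Trail.mye mice S100a8 was again higher on DDC and again the one member called, with a wider spread. S100a8 counts were 2, 1, 1 and 1 on CON and 71, 20, 20, 52 and 28 on DDC, or 3.59 ± 2.29 (SD, n = 4) and 14.1 ± 8.60 (SD, n = 5) on the Q3 scale. Because 1 count was worth 2.10 to 3.50 in the shallow CON libraries, ROI 26 on CON (7.00, from 2 counts) overlapped ROI 35 on DDC (6.83). The log2 fold change was 1.96 (SE 0.56, edgeR adjusted p = 0.0356), in a comparison that called 2.1% of genes, with 1.43% of all genes called as higher. In 3 of the 4 CON segments S100a8 was at the floor, so the fold was taken largely against a limit. The call rested on single segments: without ROI 27, 28 or 29 on CON the adjusted p was 0.157, 0.166 or 0.262, and without ROI 32 on DDC, the highest, it was 0.23. The other members passed no threshold, with log2 fold changes of 0.57 for S100a9 (SE 0.37, edgeR adjusted p = 0.617), 1.10 for Csf3r (SE 0.51, edgeR adjusted p = 0.432, and -0.038 with each segment thinned to the lowest total), -0.01 for Ly6g (SE 0.57) and -0.46 for Retnlg (SE 0.48).

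In WT mice 0 of 5 members were called for diet in either class, by edgeR, limma or at an unadjusted p of 0.05, where edgeR called 1.19% of genes in periportal IBA1+ and 0.91% in PanCK+ segments and 5.09% and 6.4% had an unadjusted p under 0.05. DESeq2 gave no adjusted p for the 5. The WT DDC periportal IBA1+ segments were uneven. ROI 9 and 13 held 4 and 5 counts of S100a8 with 3 and 7 of S100a9, which is 21.0 and 17.5 for S100a8 on the Q3 scale, within or above the range of Trail.mye DDC. ROI 7 and 11 held 1 count of every member. The WT CON pair held 1 count of S100a8 in both segments. Csf3r and Ly6g were at 1 count in 4 of 4 WT DDC periportal IBA1+ segments, so that their levels there have only an upper limit. The WT DDC PanCK+ segments likewise had 1 count of Ly6g and of Retnlg in 4 of 4. On the Q3 scale these groups lay below WT CON without overlap, as did 6.99% of genes, but 1 count was worth 2.10 to 2.63 there and 3.50 to 5.25 in WT CON, so no fold is given.

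The genotypes could be compared on DDC only to the depth of the WT libraries, and 0 of 5 members were called. In PanCK+ segments S100a9 was at 5.98 ± 4.45 (SD, n = 4) in WT and 18.2 ± 7.30 (SD, n = 5) in Trail.mye, a log2 fold change of 1.61 (SE 0.42, edgeR adjusted p = 0.083), where 0.152% of genes were called. WT ROI 7 (12.4) overlapped Trail.mye ROI 35 (12.2), and without ROI 35 the change was 1.77 (edgeR adjusted p = 0.0137). S100a8 was at 5.14 ± 2.14 and 14.1 ± 8.60, a log2 fold change of 1.34 (SE 0.46, edgeR adjusted p = 0.316), and Csf3r had a log2 fold change of 1.06 (SE 0.47, edgeR adjusted p = 0.521), which turned to -0.038 with each segment thinned to the lowest total. At an unadjusted p of 0.05 these 3 members passed, beside 9.23% of genes, and by limma 0 did. DESeq2 gave no adjusted p for 4 of the 5 and did not call the fifth. In periportal IBA1+ segments, where 0.019% of genes were called, the log2 fold change was 0.19 for S100a8 (SE 0.40) and 0.35 for S100a9 (SE 0.45), with the WT values, 12.3 ± 8.21 and 12.7 ± 9.31 (SD, n = 4), divided between floor and high segments. At an unadjusted p of 0.05, passed by 2.38% of genes, 1 member passed there, Csf3r, whose WT counts were all 1. The difference of the diet effects between genotypes was called for 0 of 5 members in either class by edgeR, DESeq2 or limma, or at an unadjusted p of 0.05, where edgeR called 0.0569% of genes in periportal IBA1+ and 0.114% in PanCK+ segments and 1.92% and 3.85% had an unadjusted p under 0.05. On CON, 0 of 5 members were called between genotypes in either class by edgeR or limma, or at an unadjusted p of 0.05. There edgeR called 0.199% of genes in periportal IBA1+ and 0.218% in PanCK+ segments, and 2.65% and 2.59% had an unadjusted p under 0.05. DESeq2 gave no adjusted p for 2 of the 5 in periportal IBA1+ and 4 of the 5 in PanCK+ segments, and called 0 of the rest. A diet effect called in Trail.mye and not in WT is therefore not shown to differ between them.

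Levels were ordered by mean Q3 value among the groups in which at least 1 segment passed 2 times the negative probe. S100a8 was highest in Trail.mye DDC periportal IBA1+ (15.3 ± 2.84), Trail.mye DDC PanCK+ (14.1 ± 8.60) and WT DDC periportal IBA1+ segments (12.3 ± 8.21), neighbours that lay within 1 SD of each other. WT DDC PanCK+ segments followed at 5.14 ± 2.14. In the other groups, some of them with higher means from counts of 1 alone, no segment passed 2 times the negative probe. S100a9 ran from 18.2 ± 7.30 in Trail.mye DDC PanCK+ and 18.0 ± 5.93 in Trail.mye DDC periportal IBA1+ through 12.7 ± 9.31 in WT DDC periportal IBA1+ and 11.9 ± 0.46 in Trail.mye CON parenchymal IBA1+ segments (n = 2) to 11.6 ± 4.78 and 10.8 ± 6.81 in the Trail.mye CON PanCK+ and periportal IBA1+ segments and 10.5 ± 7.43 in WT CON periportal IBA1+ segments (n = 2, 1 of them at the floor), with means of 4.00 to 7.44 in the other 3 groups. Csf3r stood at 12.6 ± 2.64 in Trail.mye DDC periportal IBA1+ segments, 10.5 ± 7.43 in WT CON periportal IBA1+ segments (n = 2, from 1 and 3 counts), 7.00 ± 1.63 in Trail.mye DDC PanCK+ segments and 6.62 ± 2.36 in Trail.mye CON periportal IBA1+ segments, with means of 3.38 to 4.00 in the other 2 groups. Ly6g had its highest mean over segments with no count of 1 in Trail.mye CON periportal IBA1+ segments (8.15 ± 4.32), and Retnlg in Trail.mye DDC parenchymal IBA1+ segments (10.5 in both, from 3 and 4 counts).

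By position, S100a8 counts were low throughout the parenchyma. The 7 parenchymal IBA1+ segments held 1 count in WT CON, 1 and 1 in WT DDC, 4 and 6 in Trail.mye CON and 1 and 1 in Trail.mye DDC. The counts of 4 and 6 came from libraries of 252265 and 265758 counts and were 0.73 and 0.987 times the negative probe. On DDC, the Trail.mye periportal mean of 15.3 was at least 1.66-fold higher than the parenchymal segments, whose limit of 3 counts is worth 9.19 on the Q3 scale. On CON no periportal excess was seen. The Trail.mye CON means were 2.41 periportal and 2.83 parenchymal, with no segment over 2 times the negative probe. All WT CON IBA1+ segments held 1 count. Over all 22 IBA1+ segments, with genotype and diet as a term, S100a8 was higher in periportal segments by 1.08 on the log2 scale (SE 0.36, edgeR adjusted p = 0.147), which is not a call where 2.23% of genes were called. The limma test on log2(Q3-normalized count + 1) called it (1.03, adjusted p = 0.0256), as did edgeR without the parenchymal ROI 31 (1.49, adjusted p = 0.0444). Csf3r differed by 0.84 (SE 0.31, edgeR adjusted p = 0.263), S100a9 by 0.39 (SE 0.28, edgeR adjusted p = 0.694), Ly6g by 0.16 (SE 0.34) and Retnlg by -0.16 (SE 0.35). At an unadjusted p of 0.05, passed by 11% of genes, S100a8 and Csf3r passed.

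S100a9 and S100a8 also parted in the parenchyma. In the 2 Trail.mye CON segments S100a9 had 21 counts each, 3.46 and 3.83 times the negative probe, beside the 4 and 6 of S100a8. In Trail.mye DDC it had 2 and 3 counts in libraries of 33832 and 48357 counts. Across the 7 segments the diet changed S100a9 by -0.60 (SE 0.48, edgeR adjusted p = 0.99) and the genotype by 0.92 (SE 0.60, edgeR adjusted p = 0.997). For diet and for genotype 0 of 5 members were called by edgeR or limma, or at an unadjusted p of 0.05, where edgeR called 0.759% and 0.152% of genes and 6.45% and 4.71% had an unadjusted p under 0.05. DESeq2 gave no adjusted p for 5 members in the diet comparison and for 3 in the genotype comparison, and called 0 of the rest.

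Within periportal ROIs, Csf3r was the one member called between the 2 segment classes. Over 15 ROIs with both segments, it was lower in PanCK+ than in IBA1+ by -0.68 on the log2 scale (SE 0.16, edgeR with ROI as a block, adjusted p = 0.00176), where 17.8% of genes were called and 10.2% as lower. In Trail.mye DDC the IBA1+ value was higher in 5 of 5 ROIs, at 13.6 against 8.08, 16.2 against 4.20, 11.2 against 8.22, 9.12 against 7.35 and 12.8 against 7.14 in ROI 32 to 36. In Trail.mye CON it was higher in 3 of 4 and tied in ROI 26, at 1 count in PanCK+ and 2 in IBA1+. Of the 15 ROIs, IBA1+ was higher in 9, PanCK+ in 2, 1 was tied, and 3 had 1 count in both segments. Both ROIs with PanCK+ higher were WT, ROI 3 (10.5 against 5.25) and ROI 9 (6.30 against 5.25), each with 1 count in IBA1+. WT ROI 5 went the other way (5.25 in PanCK+ against 15.8 in IBA1+). The 3 ROIs with 1 count in both segments were WT DDC, so the difference was seen mainly in Trail.mye. The call was lost when counts of 1 were set to 0 (-0.78, adjusted p = 0.0869) and when libraries were thinned (-0.11, adjusted p = 0.979).

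S100a8 and S100a9 were not called between the segment classes. S100a8 differed by -0.30 (SE 0.17, edgeR adjusted p = 0.272), and by -0.59 (edgeR adjusted p = 0.01) without ROI 32, where PanCK+ had 71 counts and IBA1+ 28. S100a9 differed by -0.10 (SE 0.17, edgeR adjusted p = 0.784). Ly6g (-0.22, SE 0.18) and Retnlg (-0.43, SE 0.17, edgeR adjusted p = 0.149) were not called. A p above the threshold does not show that the classes held equal levels.

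**Figure D5:**
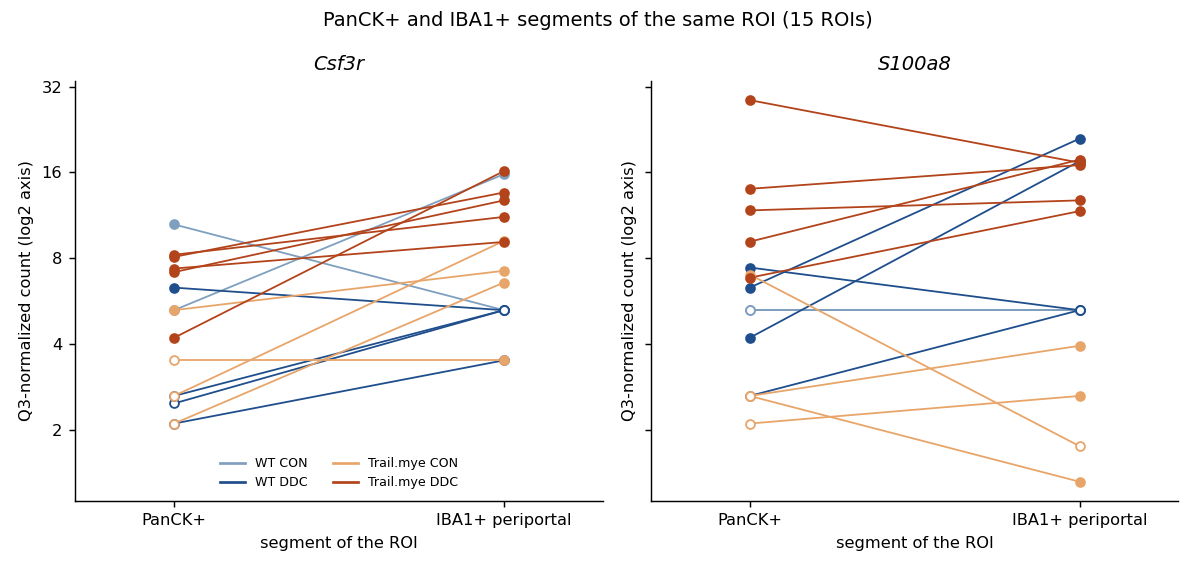
Q3-normalized count (log2 axis) of Csf3r (left) and S100a8 (right) in the PanCK+ and the IBA1+ segment of each of 15 periportal ROIs, joined by a line and coloured by genotype and diet. Open points are counts of 1. Csf3r rises from PanCK+ to IBA1+ in 5 of 5 Trail.mye DDC ROIs, and S100a8 in 4 of 5.

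Correlations of Q3 values between members are a description over segments that share depth, floor and groups. Over 38 segments the Spearman value was 0.48 for S100a8 with S100a9, 0.47 for S100a8 with Csf3r, 0.24 for S100a9 with Csf3r and 0.45 for Ly6g with Retnlg. S100a8 had values of -0.28 with Ly6g and -0.12 with Retnlg. Much of this lay between groups. The Pearson values on the log2 scale went from 0.52 to 0.36 for S100a8 with S100a9, from 0.48 to 0.20 for S100a8 with Csf3r and from 0.22 to -0.32 for S100a9 with Csf3r once each group's mean was removed. Ly6g and Retnlg went most with the negative probe (Spearman 0.58 and 0.57), against -0.12 for S100a8, -0.23 for S100a9 and -0.07 for Csf3r. Within groups their Pearson values with the probe were 0.38 and 0.51. Over the 13 IBA1+ segments of Trail.mye mice, S100a8 and Csf3r correlated at 0.81 (Spearman), with a Pearson value of 0.74 that was 0.55 within groups. S100a8 and S100a9 correlated at 0.43, with a Pearson value of 0.58 that turned to -0.18 within groups. Retnlg and the negative probe correlated at 0.74, with a Pearson value of 0.71 that was 0.64 within groups.

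No member was the nearest neighbour of another, which among so many ranked genes does not show that members moved apart. Among 10450 genes above 1 count in at least 11 of the 22 IBA1+ segments, the closest to S100a8 were Cpxm1 (Spearman 0.89), Kctd17 (0.87) and Prss47 (0.87), with S100a9 at rank 719 and Csf3r at rank 898. The closest to S100a9 was Plekho1 (0.80), to Csf3r Gng2 (0.87), to Ly6g Itpripl1 (0.82) with S100b next (0.82), and to Retnlg Triobp (0.85). Over the 16 PanCK+ segments the closest to S100a8 were Runx1 (0.90), Aldh5a1 (0.89) and H2ax (0.86), and to S100a9 Rnf169 (0.90). The 10131 genes ranked there were above 1 count in at least 8 segments, so that Ly6g, above it in 7, was not among them.

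Other neutrophil genes of the tables gave a divided picture. Of 32 granule and surface genes listed, 9 were measured. On DDC, Lcn2, the siderophore-binding lipocalin of neutrophil granules that injured epithelium and hepatocytes also make, rose in Trail.mye periportal IBA1+ segments by 2.67 (SE 0.37, edgeR adjusted p = 2.28e-07), from 6.51 ± 1.58 (SD, n = 4) to 44.4 ± 14.2 (SD, n = 5). Wfdc21, a small whey-acidic-protein-domain gene, fell by 2.51 (SE 0.30, edgeR adjusted p = 6.99e-09), and the other 7, among them Mmp9 (0.30) and Fpr1 (-0.82), passed no threshold. Of all genes 9.38% were called in that comparison. The median log2 fold change of the 9 was -0.06, beside 0.07 over all genes. In Trail.mye PanCK+ segments Lcn2 rose by 3.48, haptoglobin (Hp) by 1.89 and Wfdc21 fell by 1.16 (3 of 9 called, beside 2.1% of all genes). On DDC the 10 hepatocyte markers summed to 1046 to 3676 on the Q3 scale in those segments, and which cell gave the Hp signal was not tested. Lcn2 rose in WT too, by 3.58 in periportal IBA1+ and 4.73 in PanCK+ segments (1 of 9 called in each, beside 1.19% and 0.91% of all genes). Unlike S100a8, Lcn2 was also high in the Trail.mye DDC parenchymal IBA1+ segments (58.6 ± 13.6, n = 2).

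Of the 18 attractants and growth factors listed, 6 were measured. In Trail.mye on DDC, the complement receptor C5ar1 rose by 0.97 in periportal IBA1+ segments (SE 0.32, edgeR adjusted p = 0.0431) and the chemokine Cxcl5 by 2.51 in PanCK+ segments (SE 0.49, edgeR adjusted p = 0.00031). That is 1 of 6 called in each, beside 9.38% and 2.1% of all genes. Within ROIs, Cxcl5 (1.74), Cxcl1 (0.93) and the adhesion molecule Icam1 (0.84) were higher in PanCK+ and C5ar1 lower (-0.88), 4 of 6 called beside 17.8% of all genes. Among 9 measured genes of G-CSF receptor signalling, the adaptor Gab2 rose on DDC in Trail.mye periportal IBA1+ segments (1.39, SE 0.29, edgeR adjusted p = 0.000418), 1 of 9 called beside 9.38% of all genes. Within ROIs 5 of 9, among them the kinase Lyn (-0.88), were lower in PanCK+ than in IBA1+ segments, beside 10.2% of all genes. Of 4 measured receptors and adaptors of S100A8/S100A9, the diet left log2 fold changes of 0.17 to 0.74 in Trail.mye periportal IBA1+ segments, the lowest adjusted p by edgeR being 0.102 (Cd36). Cd14, the lipopolysaccharide co-receptor, rose in Trail.mye PanCK+ segments by 1.87 (SE 0.41, edgeR adjusted p = 0.002), 1 of 4 called beside 2.1% of all genes. In WT PanCK+ segments Cd14 was likewise higher on DDC, at 49.0 ± 22.4 (SD, n = 4) against 9.34 ± 5.63 (SD, n = 3, 1 of them at the floor) on the Q3 scale.

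The relatives of the members did not share 1 direction. Of 8 measured S100 genes besides S100a8 and S100a9, S100a4 (2.04), S100a11 (1.94) and S100a6 (1.76) rose on DDC in Trail.mye periportal IBA1+ segments, with a list median of 0.52, and S100a11 rose in PanCK+ segments (1.78). Of all genes 4.2% and 1.43% were called as higher in these 2 comparisons. S100a11 also rose in WT periportal IBA1+ (3.09) and PanCK+ segments (2.35). Of 4 measured Ly6 genes, Ly6c1, an endothelial and lymphoid antigen, fell by 0.70 in periportal IBA1+ (SE 0.24, edgeR adjusted p = 0.0499) and by 1.22 in PanCK+ segments (SE 0.30, edgeR adjusted p = 0.00835). Retnlb, the 1 resistin relative measured, was not called in either.

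Monocytes also carry S100a8, S100a9 and Csf3r. In the periportal IBA1+ segments of Trail.mye mice 2 of 7 measured monocyte markers were called higher on DDC beside S100a8. That comparison called 9.38% of all genes, with 4.2% of all genes called as higher. Cx3cr1 rose by 1.14 (SE 0.30, edgeR adjusted p = 0.00792) and F13a1 by 1.05 (SE 0.35, edgeR adjusted p = 0.0458), and the summed Q3 level of the 7 ran from 42.0 to 67.0 on CON and from 63.0 to 94.5 on DDC. Of 5 Kupffer cell markers 4 fell, led by Clec4f (-3.61) and Cd5l (-2.40), and the sum ran from 184 to 286 on CON and from 15.8 to 63.0 on DDC. Of 10 macrophage markers 0 were called higher and 2 lower, and their sums overlapped, at 512 to 760 on CON and 391 to 920 on DDC. Cd5l and Vsig4 are on both the macrophage and the Kupffer cell list, so these counts are not separate. Hepatocyte markers were lower on DDC in the same segments for 9 of 10 genes and cholangiocyte markers higher for 4 of 10. The platelet gene Pf4 was higher (1.01), and 2 red cell genes and 2 genes of T, B and NK cells had median log2 fold changes of -0.44 and 0.05 with no call. No eosinophil or basophil marker of the list was in the table. The part of these cells in the S100a8 result was not tested. Periportal against parenchymal IBA1+ segments showed Cx3cr1 higher (1.24, edgeR adjusted p = 0.0177) and 4 of 5 Kupffer cell markers lower, where 2.23% of all genes were called.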

How the data were processed

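Expected counts per gene target and segment, and Q3-normalized signal values, were used as the authors deposited them. The authors amplified the collected tags by 18 PCR cycles, sequenced them and kept targets seen in enough ROIs, and the submitters' processing notes name bcl2fastq and mm10. The aligner and its settings are not stated in those sources. Whole values were found for all but 3 genes, which were rounded, and the negative probe, 1 row left out of library sizes and tests. Each Q3 signal is the deposited count times 1 factor per segment.

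Counts of all 10547 genes went unfiltered into the quasi-likelihood test of edgeR 4.0.16 (R 4.3.3) with upper-quartile factors (75th percentile), and were adjusted by Benjamini-Hochberg and called under 0.05. The ROI was a block for PanCK+ against IBA1+, since both segments come from 1 piece of tissue. DESeq2 1.42.0, limma 3.58.1 on log2(value + 1), TMM factors, filterByExpr, counts of 1 set to 0, thinning and omission of each segment were alternatives, and the fits were tested on simulated data. Depth is given by the total counts, which limit precision as the report describes. Lists (neutrophil, related families, other cell types) and members were chosen with earlier results of these data known. Named genes were the 5 members, up to 4 called genes per list by size, and the 3 genes most alike; 1 gene that this rule names is not reported here. Lists of red cells, T, B and NK cells (2 measured genes each), platelets (1), hepatocytes (10) and eosinophils and basophils (0) were also counted.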

Additional observations from a re-analysis of the deposited data

Results flagged for a closer look

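Among 26 combinations of a member and a group of 4 or 5 segments, 4 held a segment far from its group by Dixon's criterion. For normally distributed values chance exceeds this criterion in about 1 of 20 groups. That rate does not hold where the other segments were at 1 count, since their Q3 values differ only by the factor of each segment. A further 4 combinations, with 1 count in every segment, were not tested. S100a9 in the Trail.mye CON periportal IBA1+ segment of ROI 26 stood at 21.0 on the Q3 scale, from 12 counts, with the other 3 segments at 6.57 to 7.88. S100a8 in the Trail.mye CON PanCK+ segment of ROI 26 stood at 7.00, from 2 counts, with the others at 1 count. Csf3r in the WT DDC PanCK+ segment of ROI 9 stood at 6.30, from 3 counts, with the others at 1 count. Csf3r in the Trail.mye DDC PanCK+ segment of ROI 33 was low, at 4.20 from 6 counts, with the other 4 segments at 7.14 to 8.22.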

How the results depend on the processing

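In the 3 comparisons with a call, another setting moved the number of members called by over 1.5 times in 9 of 19 cases, and leaving out 1 segment or ROI did so in 7 of 33. In the 11 comparisons with 0 called, 2 of 66 settings and 2 of 111 left-out runs gave a call. For diet in Trail.mye periportal IBA1+ segments (1 called), filterByExpr, which tests fewer genes, called 3 (S100a8 at 2.79, S100a9 at 0.97, Csf3r at 0.92) and thinning to the lowest total called 0. Among all genes tested there, filterByExpr called 669 higher and 503 lower of 3662, and thinning 82 higher and 96 lower of 10547. With 1 segment left out the number of members called ran from 1 to 4. For diet in Trail.mye PanCK+ segments (1 called), TMM factors, DESeq2 and thinning called 0, with S100a8 at 1.76, 1.78 and 2.10. filterByExpr also called 0 there because no member passed that filter, and with 1 segment left out the number ran from 0 to 1. For periportal against parenchymal IBA1+ segments (0 called), limma and filterByExpr called 1, S100a8, at 1.03 and 1.27, and left-out segments gave 0 to 1. Among all genes tested, limma called 111 higher and 166 lower of 10547 there, and filterByExpr 187 higher and 133 lower of 2913. For genotype on DDC in PanCK+ segments (0 called), left-out segments gave 0 to 1.

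For PanCK+ against IBA1+ segments (1 called), filterByExpr, which dropped Csf3r, counts of 1 set to 0, and thinning called 0, and leaving out 1 ROI gave 1 to 2. Without the ROI as a replicate block the number stayed at 1, with Csf3r at -0.71 (adjusted p = 0.00181).

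Signs turned in changes that were not called. For diet in Trail.mye PanCK+ segments, Ly6g was 0.94 with counts of 1 set to 0 and Csf3r, at 1.10 as reported, -0.038 when thinned. For genotype on DDC in PanCK+ segments, Csf3r, at 1.06 as reported and past an unadjusted p of 0.05, was -0.038 when thinned. For diet in Trail.mye periportal IBA1+ segments, Retnlg was -0.24 by limma. For position, thinning gave -0.20 for Ly6g and 0.18 for Retnlg. With 1 segment left out, the ranges that crossed 0 were -0.40 to 0.42 for Ly6g in Trail.mye PanCK+, -0.63 to 0.37 for Retnlg in Trail.mye periportal IBA1+, -0.26 to 1.38 for S100a9 with diet in WT periportal IBA1+, -0.036 to 0.48 for S100a8 with genotype on DDC in periportal IBA1+, and -0.27 to 0.65 for Ly6g by position. The causes were not tested. DESeq2 gave no adjusted p for many members, which are left out of these numbers.

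Depth limits the WT groups most: 1 count is worth up to 5.25 on the Q3 scale, so that 3 counts are worth 15.8, above the mean of Csf3r in Trail.mye DDC periportal IBA1+ segments.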
